A study of Homo sapiens with 9 samples.

Results

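The genes described here encode the platelet-derived growth factor (PDGF) ligands PDGFA, PDGFB and PDGFC and their receptors PDGFRA and PDGFRB, the epidermal growth factor (EGF) family ligands HBEGF, AREG and EREG with the receptor EGFR, and the KIT ligand KITLG. They were chosen by symbol, and 9 of the 10 were found among the 20777 genes listed in the count table. The RNA level of PDGFRA, the gene not found, was not analysed here, and only its promoter was searched. The RNA came from LX-2, a human hepatic stellate cell line that was immortalised, grown in DMEM with fetal bovine serum. The 3 groups had 3 libraries each. The control cells were identified by their titles and taken as untreated. The other groups were cells given transforming growth factor β (TGF-β) and cells given TGF-β with uridine, a pyrimidine nucleoside (TGF-β + uridine group). The labels place the treatments on day 1, and per the study's methods the TGF-β medium was replaced by medium with uridine. No group received uridine without TGF-β. The line was a single cell line in culture, and no label states that replicates were separate cultures, so that p-values measure the spread between these libraries, which may be technical.

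PDGF ligands act as dimers that bring together receptor tyrosine kinases at the cell surface, and the PDGF-B chain acting through PDGFRB is known as a strong mitogen and attractant of hepatic stellate cells. EGF family ligands are made as membrane-anchored precursors that are cut free by metalloproteases and then bind EGFR and other ERBB receptors. KITLG, or stem cell factor, is the ligand of the receptor tyrosine kinase KIT, which mast cells and blood progenitors carry. All these receptors feed the RAS-ERK and PI3K pathways, and TGF-β is the classical inducer of the matrix-producing state of stellate cells.

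The libraries were alike in depth, with 40539751 to 41467124 counts, of which 3 counts corresponded to 0.0629 to 0.0889 normalised CPM. Normalised CPM are counts scaled to a common library size, with a factor that corrects for differences in composition between libraries. The TGF-β response genes PMEPA1 and TGFBI, used as a check of the treatment, were at 39.1 ± 2.67 and 312 ± 17.4 CPM in control, 235 ± 4.39 and 2237 ± 76.8 CPM with TGF-β, and 214 ± 10.7 and 1667 ± 119 CPM with TGF-β + uridine (SD, n = 3). SMAD7 and SKIL, also in this check, did not pass the edgeR test for TGF-β against control. Their log2 fold changes were 0.76 (adjusted p = 0.0720) and 0.51 (adjusted p = 0.939). In TGF-β + uridine against control SMAD7 passed (0.98, adjusted p = 0.0185) and SKIL did not (1.40, adjusted p = 0.241). Of 13 stellate cell and fibroblast markers, 12 were listed and 7 or 8 exceeded 1 CPM on average in a group. Their summed level was 1525 to 1808 CPM in control, 2506 to 2608 CPM with TGF-β and 2124 to 2462 CPM with TGF-β + uridine, mostly from VIM. Vimentin (VIM) and TIMP1 were abundant, but COL1A2 and HAND2 had at most 0.0242 CPM in any library. Keratin 8 (KRT8), an epithelial keratin, was also abundant at 3625 to 7165 CPM, while EPCAM did not exceed 0.105 CPM. Summed epithelial markers were 5689 to 11440 CPM in control libraries, 7495 to 7971 CPM with TGF-β and 5912 to 7738 CPM with TGF-β + uridine, nearly all from KRT8 and KRT18. Abundant keratins thus stood beside COL1A2 and HAND2 near 0, and LUM and RGS5 reached at most 0.357 and 1.13 CPM. Other stellate markers were higher, with SPARC at 219 to 336 CPM and DES at 12.4 to 25.4 CPM over all libraries. COL1A1 averaged 46.1 ± 6.18 CPM in control. The marker levels were therefore mixed. The identity of the cells was not tested, and they are called LX-2 as in the labels. Of 10 stellate markers tested with edgeR, 2 rose with TGF-β and 8 were not called, against 2.42% of all genes called higher. ACTA2 rose from 9.97 ± 3.57 to 29.8 ± 5.11 CPM (log2 fold change 1.58, adjusted p = 0.0106), and VIM by 0.76 (adjusted p = 0.00442). In TGF-β + uridine against control 4 rose, against 2.89% of all genes called higher. They were COL3A1 by 1.60, ACTA2 by 1.06, VIM by 0.56 and COL1A1 by 0.52 on the log2 scale. Among the epithelial markers CLDN4, a claudin, was higher with TGF-β, at 37.8 ± 3.03 CPM against 13.5 ± 3.46 CPM in control (log2 fold change 1.48, adjusted p = 0.00248). With TGF-β + uridine CLDN4 was at 40.3 ± 4.52 CPM (1.57 against control, adjusted p = 0.00168). The endothelial cadherin CDH5 was lower with TGF-β, at 0 to 0.0731 CPM against 0.326 to 1.07 CPM in control (adjusted p = 0.0314). Markers of hepatocytes and of endothelium each summed to at most 2.88 CPM, and those of leukocytes came to 26.7 to 40.8 CPM, nearly all from CD68. The part of these marker levels in the results was not tested.

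The 3 control libraries stood apart from one another. The slope of gene-centred log2 CPM on the GC fraction of the transcript was 5.65 in control replicate 1, −0.73 in control replicate 2 and −4.10 in control replicate 3, against a span of −0.32 to 0.54 with TGF-β and of −2.69 to 2.28 with TGF-β + uridine. A positive slope means that GC-rich transcripts were high in that library. Of the 9 genes, 5 were lowest in control replicate 1 and highest in control replicate 3, namely PDGFA, PDGFC, EREG, EGFR and KITLG, with transcripts of 36.1% to 52.7% GC. The other 4 genes, PDGFB, PDGFRB, HBEGF and AREG, had 45.3% to 60.6% GC and were not ordered in that way. The log2 ratio of CPM in control replicate 1 to control replicate 3 was −3.31 for PDGFC, −2.48 for EREG and −2.36 for KITLG. It was 0.50 for PDGFB and 0.41 for PDGFRB. In reads, control replicates 1 and 3 held 121 and 121 for PDGFB, 450 and 478 for PDGFRB, and 27 and 26 for AREG. The composition factors of these libraries were 0.820 and 1.16, so that equal reads give a higher CPM in control replicate 1. The log2 ratios did not follow the order of GC content throughout. AREG had the highest ratio of the 9, 0.55, at 45.3% GC, and PDGFA had −1.80 at 52.7% GC. EGFR and HBEGF, with less GC than PDGFA at 47.5% and 50.9%, had higher ratios of −1.35 and −0.21. The part of these slopes in the comparisons was not tested beyond a fit with the slope of each library as a covariate, whose values are given beside the results they change.

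**Figure D1:**
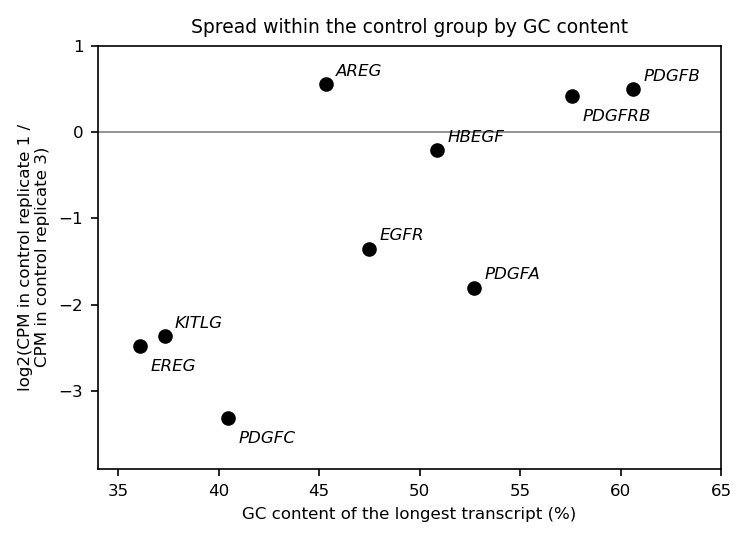
The log2 ratio of normalised CPM in control replicate 1 to that in control replicate 3 is plotted against the GC content of the longest transcript, in percent, with 1 point per gene. PDGFC, EREG and KITLG, at 36.1% to 40.46% GC, lie lowest. PDGFB and PDGFRB lie above 0, and so does AREG, which is highest at 0.55 although its GC content is 45.3%.

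Short windows around sequence matches in the promoters are shown because TGF-β acts through SMAD factors and because the study concerned cAMP signalling, whose factor CREB binds the cAMP response element. RefSeq promoters (GRCh38.p14) matched 8 of the 10 genes, all but PDGFB and PDGFC, and the 250 bases before the start were searched on both strands. The windows below are written on the strand of the gene, with the match in capitals.
AREG: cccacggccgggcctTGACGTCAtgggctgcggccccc
PDGFRB: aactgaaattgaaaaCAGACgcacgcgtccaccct
EREG: taaagttcgcagcacCAGACagttgagctc
The AREG window (chr4:74445056-74445093, plus strand) holds the full cAMP response element TGACGTCA, 65 to 58 bases before the start, which 1.77% of 27305 promoters hold and which was found in no other of the 8 promoters. The windows of PDGFRB (chr5:150155974-150156008, minus strand) and EREG (chr4:74365115-74365144, plus strand) hold the SMAD core CAGAC, which is common, being present in 37.8% of promoters. The SMAD palindrome GTCTAGAC, present in 0.176% of promoters, was in none of the 8. The AP-1 site TGANTCA, present in 6.60% of promoters, was found in PDGFRA alone, which also holds the SMAD core. These matches describe letters in the window and not binding.

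TGF-β against control asks what the inducer alone did to these genes. PDGFB and its receptor gene PDGFRB were both higher, by 2.998-fold and 2.37-fold, and no other gene of the 9 passed the test. That is 2 of 9 genes at an adjusted p under 0.05 (edgeR quasi-likelihood test with Benjamini-Hochberg adjustment over 13384 genes), against 3.38% of all genes tested, or 2.42% counted as higher. An unadjusted p under 0.05 was found in 3 of the 9, against 12.1% of all genes. All 9 genes passed the filter on low counts. Because bulk RNA was measured, more RNA per cell and a larger share of cells with the RNA cannot be told apart.

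PDGFB (chr22:39223359-39244751, minus strand, GRCh38) encodes the PDGF-B chain. It was read 121, 103 and 121 times in the control libraries, 353, 352 and 340 times with TGF-β, and 201, 213 and 204 times with TGF-β + uridine. In normalised terms these were 3.58, 2.45 and 2.54 CPM in control, 8.88, 8.52 and 8.28 CPM with TGF-β, and 4.67, 5.57 and 4.61 CPM with TGF-β + uridine. The 3 groups did not overlap, with the TGF-β + uridine libraries lying between the other two groups. The mean rose from 2.86 ± 0.630 CPM (SD, n = 3) in control to 8.56 ± 0.300 CPM with TGF-β, a log2 fold change of 1.58 (SE 0.21, 95% interval 1.12 to 2.05, adjusted p = 0.00322). Leaving out 1 library at a time gave 1.49 to 1.77, and the call held in 9 of 9 such fits and in 12 of 12 other settings.

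PDGFRB (chr5:150113837-150155872, minus strand) encodes the receptor that binds PDGF-B dimers with high affinity. It stood at 13.3, 12.5 and 10.0 CPM in control, 28.0, 27.3 and 29.7 CPM with TGF-β, and 25.9, 29.5 and 24.8 CPM with TGF-β + uridine. Both treated groups lay above every control library and overlapped each other. The mean rose from 11.9 ± 1.72 CPM to 28.3 ± 1.22 CPM with TGF-β (log2 fold change 1.25, SE 0.14, adjusted p = 0.00157). The call held in 9 of 9 fits with a library left out, at 1.13 to 1.33, and in 12 of 12 other settings.

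The other PDGF ligand genes did not pass the test. PDGFA (chr7:497258-520296, minus strand), whose chain forms PDGF-AA and PDGF-AB dimers, was at 1.60, 3.0 and 5.58 CPM in control, 2.44, 2.40 and 3.46 CPM with TGF-β, and 2.09, 1.91 and 2.21 CPM with TGF-β + uridine. The control libraries spanned the range of both treated groups. The log2 fold change with TGF-β was −0.30 (95% interval −1.22 to 0.62, adjusted p = 0.966). PDGFC (chr4:156760454-156971394, minus strand), whose protein needs a proteolytic cut to become active, was at 0.178, 1.40 and 1.76 CPM in control, 0.604, 1.04 and 1.61 CPM with TGF-β, and 2.0, 1.28 and 1.65 CPM with TGF-β + uridine. Control replicate 1 held 6 reads of PDGFC and control replicate 3 held 84. The groups overlapped and the log2 fold change with TGF-β was −0.054 (95% interval −1.56 to 1.45, adjusted p = 0.998), an interval that holds changes of either sign.

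**Figure D2:**
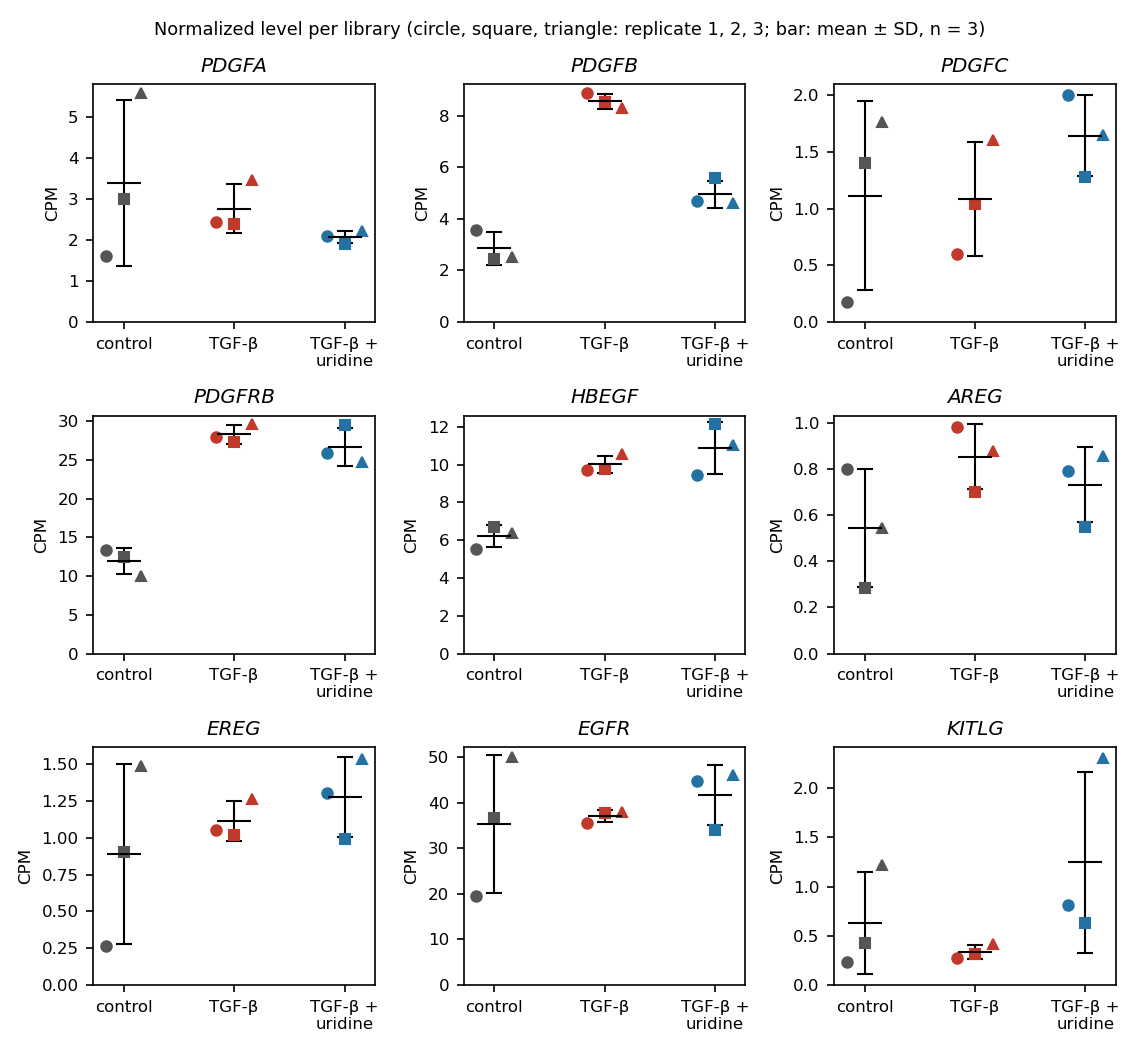
Normalised level in CPM of the 9 genes in each library, by group, with each axis starting at 0. Circles, squares and triangles are replicates 1, 2 and 3, and bars give the mean ± SD (n = 3). The libraries of PDGFB do not overlap between the 3 groups. Those of PDGFRB and HBEGF lie higher in both treated groups than in control. PDGFB was called only for TGF-β against control, and HBEGF only for TGF-β + uridine against control. The control libraries of PDGFC, EREG, EGFR and KITLG spread widely.

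HBEGF (chr5:140332843-140346631, minus strand) encodes heparin-binding EGF-like growth factor, a ligand of EGFR and ERBB4. It was at 5.54, 6.69 and 6.40 CPM in control, 9.71, 9.78 and 10.5 CPM with TGF-β, and 9.44, 12.2 and 11.0 CPM with TGF-β + uridine. Every treated library was above every control library. The means were 6.21 ± 0.599 CPM in control and 10.0 ± 0.465 CPM with TGF-β, with a log2 fold change of 0.69 (SE 0.16, 95% interval 0.32 to 1.05) that missed the threshold (adjusted p = 0.0578). It passed in 4 of 21 alternative settings, with adjusted p from 0.00130 to 0.246 over all 21. Those 4 were DESeq2 (0.00432), the fit without control replicate 1 (0.0416), and the GC slope covariate without (0.00130) and with (0.00235) a replicate block.

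AREG and EREG lie next to each other on chromosome 4 with no coding gene between, and their reads were few. AREG (chr4:74445134-74455009, plus strand), amphiregulin, had 27, 12 and 26 reads in control, 39, 29 and 36 with TGF-β, and 34, 21 and 38 with TGF-β + uridine. These were 0.286 to 0.800 CPM, 0.702 to 0.981 CPM and 0.549 to 0.858 CPM, ranges that overlapped throughout. EREG (chr4:74365143-74388751, plus strand), epiregulin, had 9, 38 and 71 reads in control, 42, 42 and 52 with TGF-β, and 56, 38 and 68 with TGF-β + uridine. The log2 fold change with TGF-β was 0.66 for AREG (95% interval −0.26 to 1.58, adjusted p = 0.679) and 0.31 for EREG (−0.84 to 1.46, adjusted p = 0.976).

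EGFR (chr7:55019021-55211628, plus strand), the receptor of HBEGF, AREG and EREG, stood at 19.6, 36.6 and 49.98 CPM in control. With TGF-β it was at 35.5, 37.7 and 38.1 CPM, and with TGF-β + uridine at 44.8, 34.1 and 46.2 CPM. All TGF-β libraries lay within the range of the control libraries, and the log2 fold change was 0.068 (95% interval −0.58 to 0.71, adjusted p = 0.998). EGFR-AS1, an antisense gene overlapping EGFR, had at most 1 read in any library.

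KITLG (chr12:88492793-88580851, minus strand) was the least abundant gene per length in every group. It had 8, 18 and 58 reads in control, 11, 13 and 17 with TGF-β, and 35, 24 and 102 with TGF-β + uridine. Control replicates 2 and 3, at 0.429 and 1.22 CPM, lay above every TGF-β library, of which the highest was at 0.414 CPM. The log2 fold change with TGF-β was −0.92 (95% interval −2.49 to 0.65, adjusted p = 0.804), and without control replicate 3 it was −0.0032. Its receptor gene KIT had 0 or 1 read in every library.

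Over the 9 genes the median log2 fold change with TGF-β was 0.31, beside −0.053 over all genes tested. The control and TGF-β libraries did not overlap in 3 of the 9 genes, PDGFB, PDGFRB and HBEGF, where 17.7% of all genes did not overlap and 9.72% lay higher without overlap. For each of the 3 genes the exact two-sided permutation test gave p = 0.1, the smallest that 3 libraries against 3 allow.

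TGF-β + uridine against TGF-β asks what uridine changed in TGF-β-treated cells, and shares its TGF-β libraries with the first comparison. None of the 9 genes passed the test, where 6 of 13384 genes (0.0448%) did, all lower with uridine, and 2 of the 9 had an unadjusted p under 0.05 against 8.79% of all genes (edgeR quasi-likelihood test). DESeq2 called 1 of the 9, beside 117 of 14301 genes. PDGFB showed the smallest p of the 9, at a mean of 4.95 ± 0.535 CPM with TGF-β + uridine against 8.56 ± 0.300 CPM with TGF-β, 1.73-fold lower in the fit. Its log2 fold change was −0.79 (SE 0.20, 95% interval −1.25 to −0.33, unadjusted p = 0.00362, adjusted p = 0.284). The size of the difference hardly varied with a library left out, at −0.88 to −0.74, while its adjusted p over 21 alternatives ran from 0.00124 to 0.878. It passed in 7 of these, among them DESeq2 (0.0382), a fit of the 2 groups alone (0.0365), the fit without control replicate 1 (0.0343) and the GC slope covariate (0.00124).

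PDGFRB did not differ detectably between the 2 TGF-β groups, with 26.7 ± 2.47 CPM against 28.3 ± 1.22 CPM and a log2 fold change of −0.086 (95% interval −0.40 to 0.23, adjusted p = 0.980). For HBEGF the difference was 0.12 (95% interval −0.24 to 0.48, adjusted p = 0.963). The intervals leave out a difference as large as the one either gene showed between TGF-β and control in its point estimate.

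KITLG was at 0.277, 0.315 and 0.414 CPM with TGF-β and at 0.814, 0.627 and 2.30 CPM with TGF-β + uridine. The groups did not overlap, but replicate 3 of the TGF-β + uridine group was far above the others. The log2 fold change was 1.89 (SE 0.69, 95% interval 0.33 to 3.45, unadjusted p = 0.0230, adjusted p = 0.464), and without that library it was 1.10 (adjusted p = 0.978). That library also had the lowest GC slope of its group, −2.69, and KITLG has 37.3% GC. With the GC slope as a covariate the log2 fold change was 1.62 (adjusted p = 0.0145), and over 18 alternatives the adjusted p ran from 0.0145 to 0.986.

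The remaining genes had adjusted p from 0.904 to 0.993 in this comparison. The TGF-β and TGF-β + uridine libraries did not overlap in 3 of the 9 genes, PDGFA, PDGFB and KITLG, where 25.6% of all genes did not overlap. The exact permutation p was again 0.1 in each. The median log2 fold change over the 9 genes was 0.12, beside 0.021 over all genes tested.

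TGF-β + uridine against control gives the joint effect, and shares its control libraries with the first comparison. PDGFRB and HBEGF were higher, by 2.24-fold and 1.75-fold, which is 2 of 9 genes against 5.33% of all genes tested, or 2.89% counted as higher. An unadjusted p under 0.05 was found in 3 of the 9, against 17.6% of all genes. For PDGFRB the log2 fold change was 1.16 (SE 0.14, adjusted p = 0.00214), and it passed in all 21 alternatives. For HBEGF the mean was 10.9 ± 1.36 CPM against 6.21 ± 0.599 CPM and the log2 fold change 0.81 (SE 0.16, 95% interval 0.44 to 1.17, adjusted p = 0.0226). The HBEGF call was lost in 9 of 21 alternatives, with adjusted p from 2.7e-04 to 0.156 over all 21. Besides a replicate block, it was lost in the fit of the 2 groups alone (0.156), without the filter on low counts (0.0528) and without control replicate 2 (0.0770), TGF-β replicate 1 (0.0580), TGF-β replicate 2 (0.0609), TGF-β replicate 3 (0.0577), TGF-β + uridine replicate 2 (0.0939) or TGF-β + uridine replicate 3 (0.0859).

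PDGFB had a log2 fold change of 0.79 against control (SE 0.20, 95% interval 0.33 to 1.26, adjusted p = 0.0623). It passed in 8 of 21 alternatives, with adjusted p from 4.0e-04 to 0.261, including the fit without control replicate 1 (0.00762) and the GC slope covariate (0.84, adjusted p = 4.0e-04). PDGFA had a log2 fold change of −0.72 (95% interval −1.64 to 0.21, adjusted p = 0.453), which became −1.07 (adjusted p = 0.0397) without control replicate 1. When control replicate 3 was left out instead, the value was −0.15. PDGFA also passed with the GC slope as a covariate (−0.64, adjusted p = 0.0483), in a range of adjusted p from 0.0397 to 0.812 over 21 alternatives. EGFR, at 0.23 (adjusted p = 0.823), passed only with the GC slope as a covariate (0.25, adjusted p = 0.0153) and with that covariate beside a replicate block, in a range from 0.0153 to 0.960. The groups did not overlap in PDGFB, PDGFRB and HBEGF, or 3 of 9 genes, where 19.7% of all genes did not overlap and 10.5% lay higher without overlap. The median log2 fold change over the 9 genes was 0.55, beside −0.011 over all genes tested.

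**Figure D3:**
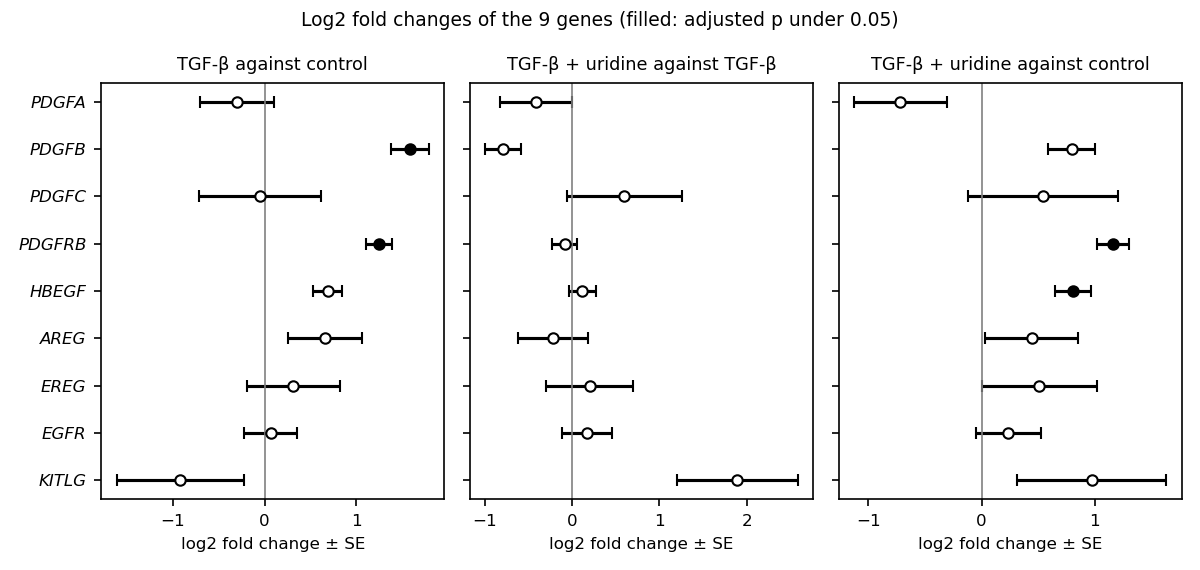
Log2 fold changes of the 9 genes from edgeR, with SE, in the 3 comparisons. Filled points have an adjusted p under 0.05: PDGFB and PDGFRB for TGF-β against control, none for TGF-β + uridine against TGF-β, and PDGFRB and HBEGF for TGF-β + uridine against control.

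Levels between genes were compared per transcript length, as FPKM. In control EGFR was highest at a mean of 3.26 FPKM, followed by HBEGF at 2.67, PDGFRB at 2.06, PDGFA at 0.996, PDGFB at 0.742, AREG at 0.428, PDGFC at 0.241, EREG at 0.208 and KITLG at 0.125 FPKM. Among neighbours in this order, only PDGFRB and PDGFA, and PDGFB and AREG, had ranges over the libraries that did not overlap. With TGF-β the receptor PDGFRB led at 4.90 FPKM, before HBEGF at 4.21, EGFR at 3.22 and PDGFB at 2.24 FPKM, and these 4 did not overlap. The rest were PDGFA at 0.754, AREG at 0.684, EREG at 0.239, PDGFC at 0.214 and KITLG at 0.0612 FPKM, where PDGFA overlapped AREG and EREG overlapped PDGFC. With TGF-β + uridine the order of the first 4 was kept, with PDGFRB at 4.71, HBEGF at 4.67, EGFR at 3.74 and PDGFB at 1.32 FPKM, although PDGFRB, HBEGF and EGFR overlapped one another in turn. AREG at 0.610, PDGFA at 0.580, PDGFC at 0.334, EREG at 0.284 and KITLG at 0.240 FPKM followed, with overlaps between neighbours except between PDGFA and PDGFC, while PDGFB overlapped neither EGFR above it nor AREG below it.

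Shares of the ligand RNA were compared within each family. PDGFB made up 43.3% ± 20.9 (SD, n = 3) of the summed FPKM of PDGFA, PDGFB and PDGFC in control, 70.1% ± 6.04 with TGF-β and 59.3% ± 5.28 with TGF-β + uridine. Its control libraries ran from 26.3% to 66.6%, and the groups overlapped (exact two-sided permutation test, p = 0.2 for TGF-β against control). PDGFA made up 46.0% ± 14.6 in control and 23.3% ± 3.601 with TGF-β, without overlap (exact permutation p = 0.1, the smallest possible). PDGFC made up 6.55% ± 2.70 with TGF-β and 14.8% ± 3.36 with TGF-β + uridine, also without overlap (exact permutation p = 0.1). Of the summed FPKM of HBEGF, AREG and EREG alone, HBEGF made up most throughout. Its share was 80.6% ± 5.48 in control, 82.0% ± 1.96 with TGF-β and 84.0% ± 4.07 with TGF-β + uridine (exact permutation p from 0.5 to 0.7). Other EGF family ligands were left out of this sum. In control, EPGN was at 1.07, 1.90 and 3.57 FPKM and TGFA at 0.233, 1.05 and 1.00 FPKM.

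**Figure D4:**
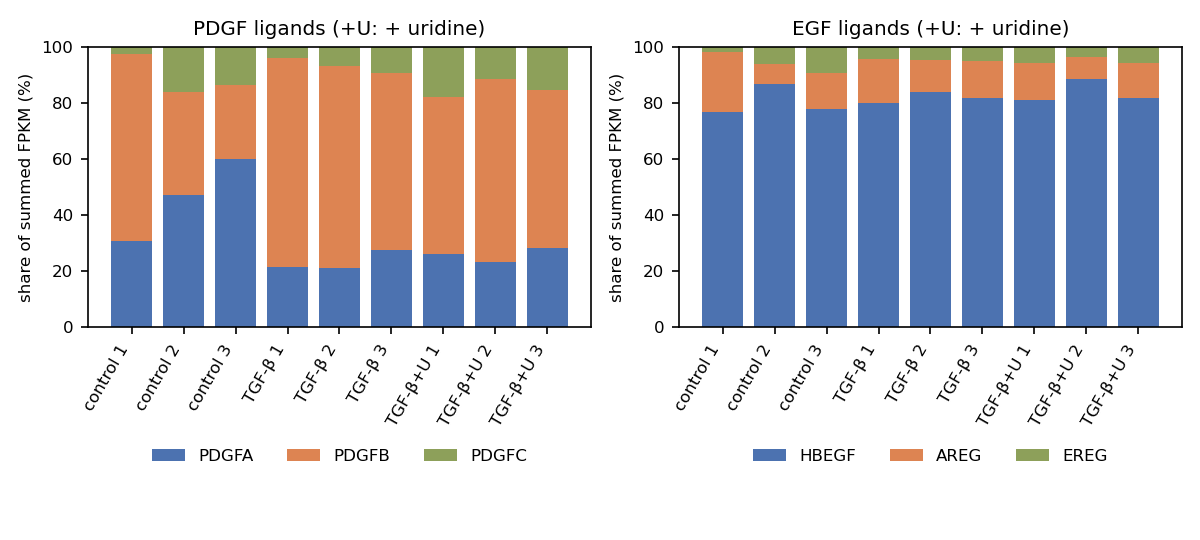
Share of each gene, in percent, of the summed FPKM of the PDGF ligands (left) and of HBEGF, AREG and EREG (right), with 1 bar per library. PDGFB holds 63.3% to 74.8% with TGF-β but 26.3% to 66.6% in control, and HBEGF holds over 76% in every library.

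The other genes of these pathways were described by lists, written with earlier results of these data known and given no set test. Over all genes tested, 3.38% were called with TGF-β, and 2.42% were called higher. In TGF-β + uridine against control these shares were 5.33% and 2.89%. Of the PDGF family, 5 of 7 genes were tested, and PDGFB and PDGFRB were the 2 that rose with TGF-β. PDGFD, another PDGFRB ligand, had at most 4 reads in a library. Of 11 EGF family ligands 7 were tested, and none passed with TGF-β (median log2 fold change 0.12). EPGN, epigen, averaged 7.40 CPM in control and 3.04 CPM with TGF-β (log2 fold change −1.29, adjusted p = 0.0952 in the edgeR test). The gene EGF itself had at most 1 read in a library. Of the ERBB receptors and KIT, 3 of 5 were tested and none passed with TGF-β. ERBB3, which pairs with other ERBB receptors, fell in TGF-β + uridine against control, from 2.22 ± 0.579 CPM to 0.731 ± 0.154 CPM (log2 fold change −1.60, adjusted p = 0.0247).

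Of 10 tested genes for shedding and processing of growth factors, 3 rose with TGF-β and none fell, against 2.42% of all genes called higher. PLAU, urokinase, which can activate PDGF-D, rose from 6.94 ± 0.403 CPM to 33.8 ± 0.935 CPM (log2 fold change 2.28, adjusted p = 2.8e-05). PLAT, tissue plasminogen activator, which activates PDGF-C, rose by 0.86 on the log2 scale (adjusted p = 0.00834), and FURIN, a convertase that cuts PDGF-A and PDGF-B precursors, by 0.72 (adjusted p = 0.0127). The median over the 10 genes was −0.0050 on the log2 scale, beside −0.053 over all genes. PLAU was also the only gene of all lists called in TGF-β + uridine against TGF-β, where it fell to 14.96 ± 1.44 CPM (log2 fold change −1.18, adjusted p = 0.0207). That call was lost with a replicate block and without control replicate 2, any TGF-β library or any TGF-β + uridine library, since those fits called 0 of all genes in this comparison. All 3 were higher in TGF-β + uridine than in control.

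Of 16 adaptor and turnover genes 1 changed with TGF-β: SOCS3, an inhibitor of cytokine signalling, fell by 0.60 on the log2 scale (adjusted p = 0.0295). Of 15 tested ERK-induced genes and feedback inhibitors 2 rose and none fell, against 2.42% of all genes called higher. Their median log2 fold change was 0.22. The called genes were IER3, at 61.3 ± 12.9 CPM in control and 143 ± 6.52 CPM with TGF-β (log2 fold change 1.22, adjusted p = 0.00259), and the ERK phosphatase DUSP4, at 18.4 ± 2.34 and 34.2 ± 1.96 CPM (0.90, adjusted p = 0.00658). With TGF-β + uridine the median of the 15 genes against TGF-β was −0.25, beside 0.021 over all genes, and none passed.

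Of 15 other receptor tyrosine kinases tested, 5 rose with TGF-β and none fell (median 0.14), against 2.42% of all genes called higher. CSF1R, the receptor of colony-stimulating factor 1, rose from 10.1 ± 2.53 to 41.45 ± 3.28 CPM (log2 fold change 2.04, adjusted p = 4.1e-04). EPHB2, an ephrin receptor, rose from 30.3 ± 2.62 to 108 ± 2.04 CPM (1.84, adjusted p = 2.7e-05). FGFR1, a fibroblast growth factor receptor, rose by 0.64 and EPHA2, another ephrin receptor, by 0.59 on the log2 scale. The fifth, IGF1R, rose by 0.45, and was named outside the rule after its values were seen. In TGF-β + uridine against control, 4 of the 15 rose, against 2.89% of all genes called higher. These were EPHB2 by 1.91, CSF1R by 1.79, FGFR1 by 0.87 and EPHA2 by 0.47 on the log2 scale. IER3 rose by 0.89 as the only called gene of the ERK-induced list. Among 8 tested ligands of other receptors, CSF1, the ligand of CSF1R, fell with TGF-β from 8.78 ± 1.38 to 4.43 ± 0.375 CPM (log2 fold change −0.99, adjusted p = 0.0262).

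**Figure D5:**
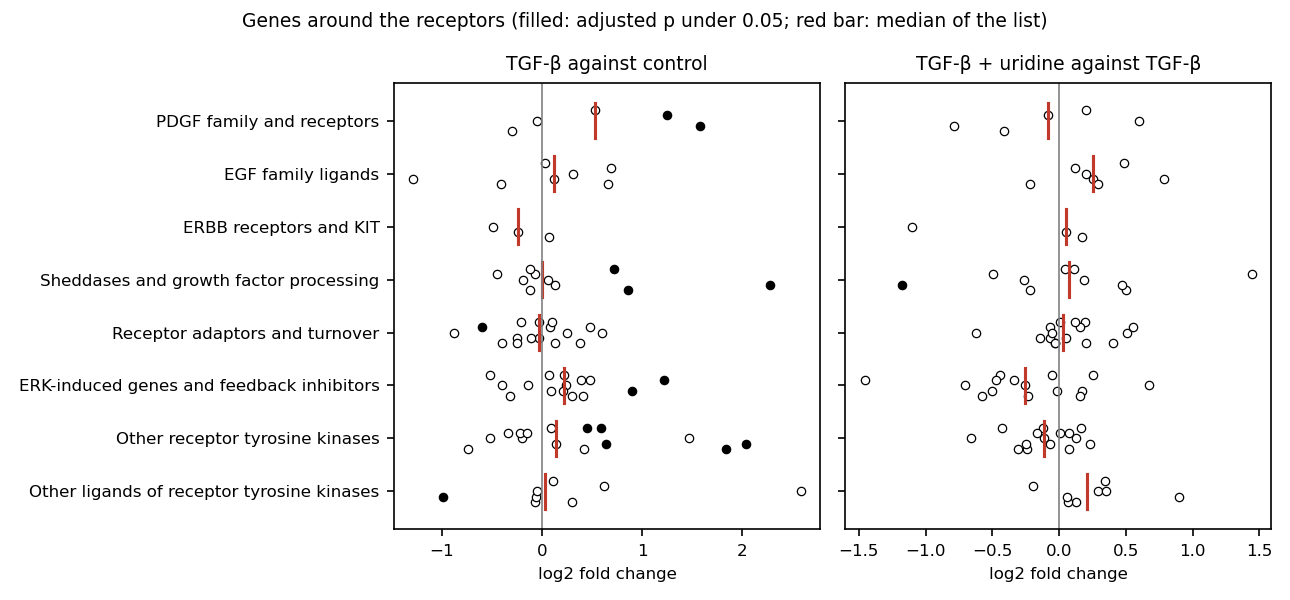
Log2 fold changes of the genes of 8 lists around the receptors for TGF-β against control (left) and TGF-β + uridine against TGF-β (right), 1 point per gene and a red bar at the median of the list. Filled points have an adjusted p under 0.05, and on the right PLAU is the only one.

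The genes whose pattern over the 9 libraries was nearest to those called were found by the root-mean-square difference of log2 CPM, each gene centred on its own mean. For PDGFB they were MT1X at 0.117, CALHM3 at 0.120 and IER3 at 0.201, where the median over all genes was 0.743. MT1X has near-identical metallothionein copies, so that its reads may be split between them. For PDGFRB they were CMTM3 at 0.0382, ZNF185 at 0.0734 and ITGA5 at 0.0830 (median over all genes 0.671). For HBEGF they were NREP at 0.104, MRAS at 0.109 and ITPRIP at 0.119 (median over all genes 0.498). These are descriptions over libraries that share treatments, with no test.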

How the data were processed

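RNA-seq of 9 LX-2 libraries, 3 per group, was analysed. The treated groups were taken from the treatment labels and the control group from the sample titles. The authors deposited whole-number read counts per gene symbol, not normalised, and FPKM values for the same genes, which equal the count divided by the library total and 1 fixed length per gene. The submitters' processing notes name fastp, HISAT2, HTSeq, R 3.2.0 and GRCh38.p13, and libraries were made with a VAHTS kit by a commercial provider. Strand settings are not given in the sources used here. Gene coordinates were taken from a GENCODE annotation of GRCh38 and promoters from RefSeq.

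Counts were tested in R 4.3.3 with edgeR 4.0.16: filterByExpr left 13384 of 20777 genes, followed by TMM normalisation and a two-sided quasi-likelihood test in 1 model of condition over 9 libraries (common biological coefficient of variation 0.289). Genes were called at a Benjamini-Hochberg adjusted p under 0.05, with adjustment across every gene tested. Exact permutation tests over libraries cannot go below 0.1. The depth was about equal in all libraries, and a count of 3 was taken as the floor, which covers counting error only. No 2 libraries of a group agreed within counting error.

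The genes were named by a rule: the 10 chosen genes, up to 4 called genes per list and comparison by size of change, and the 3 genes nearest in pattern to each called gene. The genes and lists were chosen with earlier results of these data known. Alternatives were DESeq2 1.42.0, other normalisations and filters, limma 3.58.1 on log2(FPKM + 1) or log2(FPKM + 0.1), the 2 groups alone, a replicate block and each library left out. A GC slope covariate, available from GC values for 92.0% of tested genes, was added after seeing the data. The statistical code was tested on simulated data. One gene of the treatment check is not reported here.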

Additional observations from a re-analysis of the deposited data

How the results depend on the processing

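For TGF-β against control, where the edgeR test called 453 genes, other settings called 719 (DESeq2), 229 (the 2 groups alone), 803, 793 and 796 (limma on log2(FPKM + 1), on log2(FPKM + 0.1), and without a filter), 2715 (GC slope covariate) and 2340 (GC slope with replicate block), and 218 to 1085 with a library left out. For TGF-β + uridine against TGF-β, where 6 were called, the counts were 117 (DESeq2), 10 (upper quartile), 317 (the 2 groups alone), 385, 378 and 295 (limma), 2554 (GC slope) and 2072 (GC slope with replicate block), and 0 to 271 with a library left out. For TGF-β + uridine against control, where 714 were called, they were 1103 (DESeq2), 222 (the 2 groups alone), 1421, 1402 and 1364 (limma), 4162 (GC slope) and 3756 (GC slope with replicate block), and 304 to 2413 with a library left out. The cause of these differences was not tested.

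Of the 9 genes, TGF-β against control called 2 to 3 with a library left out. In TGF-β + uridine against TGF-β, 0 were called, but 1 with DESeq2, 1 with the 2 groups alone, 1 with either filtered limma fit, 2 with the GC slope with or without a replicate block, and 0 to 1 with a library left out. In TGF-β + uridine against control, 2 were called, but 1 without the filter on low counts, 1 with the 2 groups alone, 5 with the GC slope, 4 with the GC slope and a replicate block, and 1 to 4 with a library left out. These counts stand beside those over all genes in the paragraph above. With the GC slope, 2554 of 13384 genes were called in TGF-β + uridine against TGF-β, and 4162 in TGF-β + uridine against control. A minimum of 10 counts in every library, or of 0.5 mean FPKM, left 6 of the 9 genes, without PDGFC, EREG and KITLG.

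Directions turned in 2 comparisons. For PDGFC with TGF-β, at −0.054 on the log2 scale, the values were 0.051 (replicate block), 0.24 (GC slope) and 0.30 (GC slope with replicate block). With a library left out, TGF-β against control ranged from −0.64 to 0.26 for PDGFA, −0.55 to 0.43 for PDGFC, −0.11 to 0.90 for EREG and −0.23 to 0.40 for EGFR, and TGF-β + uridine against control from −0.077 to 0.57 for EGFR. None of these had been called.

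Deviations from group means gave no sign that replicate numbers pair the libraries. Those of same-numbered libraries correlated at −0.21 to 0.56 (median −0.031, 2 of 9 pairs over 0.1), against −0.66 to 0.63 for libraries of different numbers (5 of 18 pairs over 0.1). The values of 0.63 (control replicate 1 with TGF-β + uridine replicate 2) and 0.56 (control and TGF-β + uridine replicate 3) joined libraries with GC slopes of the same sign. Pairing apart from the GC slopes was not tested. With the replicate block edgeR called 314, 0 and 437 genes in the 3 comparisons in the order above, with 1001 at an unadjusted p under 0.05 in the second, and 1 of the 9 genes in the third, where HBEGF had an adjusted p of 0.0513. The wide spread of the control libraries limits PDGFA, PDGFC, EREG, EGFR and KITLG, and low counts limit AREG, EREG, PDGFC and KITLG.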

Other observations

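PDGFRB has a neighbour that moved with it. CSF1R (chr5:150053291-150113372, minus strand, GRCh38) lies 464 bases from PDGFRB on the same strand, with no coding gene between. It stood at 12.9, 9.43 and 7.95 CPM in control, 44.9, 38.4 and 41.1 CPM with TGF-β, and 35.3, 37.1 and 32.3 CPM with TGF-β + uridine. As for PDGFRB, both treated groups lay above every control library, and reads of one gene counted to the other were not tested for. Of all genes, 9.72% lay higher without overlap with TGF-β and 10.5% with TGF-β + uridine, each against control. Another neighbour, EPGN, lies 49835 bases from EREG on the same strand, with no coding gene between. With TGF-β the log2 fold change was −1.29 for EPGN and 0.31 for EREG, and neither passed the edgeR test.

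CSF1 and IGF1R, chosen after their values were seen, stood near the control level with TGF-β + uridine. The same TGF-β libraries enter both comparisons, so that choosing genes that differ there favours such a pattern. CSF1 was at 10.2, 8.79 and 7.40 CPM in control, 4.53, 4.02 and 4.75 CPM with TGF-β, and 8.98, 8.91 and 6.89 CPM with TGF-β + uridine. The difference between the 2 TGF-β groups was 0.90 on the log2 scale (SE 0.19) and missed the threshold in the edgeR test (adjusted p = 0.233). IGF1R, the receptor of insulin-like growth factor 1, averaged 283 ± 3.06 CPM in control, 387 ± 4.004 CPM with TGF-β and 288 ± 7.69 CPM with TGF-β + uridine (SD, n = 3). Its difference between the 2 TGF-β groups was −0.43 on the log2 scale (SE 0.078, adjusted p = 0.164). These groups did not overlap, as was so for 25.6% of all genes.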
